A study of Homo sapiens with 6 samples.

Results

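Genes that hypoxia-inducible factor (HIF) is known to switch on, other than those of glucose transport and glycolysis, were followed in MDAMB468 cells with and without overexpression of IGFBP2, together with the genes of the HIF system itself. The rule was known function, in a list of 38 symbols drawn up with earlier results of these data known, and 35 of them are among the 10487 genes of the deposited table. CA9, CA12 and LOX are on the list but were not analysed here.

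MDAMB468 is an established human triple negative breast cancer cell line, and neither group was treated. The 3 control libraries came from cells of genotype WT, and the 3 IGFBP2 over-expression libraries from the same line carrying a catalytically inactive Cas9 fused to a transcriptional activator, with a guide RNA that brings it to the IGFBP2 promoter. The overexpressing cells were selected with blasticidin and sorted for the fluorescent proteins of the guide vectors, so they are a selected pool, and whether the control cells carried the activator without a guide is not given in the sources used here. The paper describes the replicates as biological, and the sample titles only number them. RNA was read from the 3′ end of each transcript, with a single contrast between the groups.

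HIF is a pair of proteins, an oxygen-labile alpha subunit (HIF-1α from HIF1A or HIF-2α from EPAS1) and a stable partner from ARNT. When oxygen is present, the prolyl hydroxylases of the EGLN genes mark the alpha subunit for the VHL ubiquitin ligase, which has it degraded, so much of the control acts on the protein and is not seen in RNA. When the alpha subunit persists, the pair binds short DNA motifs with the core ACGTG or GCGTG near genes for oxygen supply, collagen and redox chemistry, mitochondrial clearance, storage of glycogen and lipid, and demethylation of chromatin, and several targets, EGLN3 among them, feed back on the system.

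The core is visible in the promoters of several members described in the results, and some stretches that hold it are shown. The members shown have control and overexpression libraries that do not overlap, or, for P4HA1, the pattern that the comparison of single libraries turns on. PLOD1 and GYS1 also have separate groups and hold the core, and ERO1A and BNIP3 hold cores outside their windows. These further cores are not shown. The windows are from RefSeq promoters on GRCh38.p14, 5′ to 3′ on the strand of the gene, each with the core that it is centred on in capitals, and a core on the opposite strand reads CACGT or CACGC.
ANGPTL4, chr19:8363911-8363935, plus strand: aaagaagagtCACGTctcccacggt
ADM, chr11:10304962-10304986, plus strand: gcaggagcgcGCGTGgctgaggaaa
P4HA1, chr10:73096938-73096962, minus strand: tgatcgagctCACGTagcgagggct
ERO1A, chr14:52695658-52695682, minus strand: ggcgccgcggCACGTccacaggctg
BNIP3, chr10:131982042-131982067, minus strand: gcacgcgccgCACGTGccacacgcac
KDM3A, chr2:86441335-86441359, plus strand: gggaggctgtGCGTGtcttgtgaga
ANKRD37 upstream, chr4:185396669-185396694, plus strand: cgccgggctcCACGTGccagtgtttg
ANKRD37 downstream, chr4:185396688-185396712, plus strand: gtgtttgtgtACGTGcggccgtggc

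The palindrome CACGTG in BNIP3 and ANKRD37 holds the ACGTG core on both strands. The BNIP3 window also contains 2 matches to CACGC, at -143 and -125, which are left in lower case. Counting from the RefSeq gene start, the first capital stood at -234 in ANGPTL4, -101 in ADM, -86 in P4HA1, -114 in ERO1A, -134 in BNIP3 and -26 in KDM3A, and at -162 and -143 in ANKRD37. Of the 35 members, 28 matched a promoter of the table by symbol, and 22 of these (78.6%) held at least 1 core, ACGTG or GCGTG on either strand, in the 250 bases before the start. Among all RefSeq promoters the share was 43.1% (11763 of 27305), and among promoters of the deposited genes it was 59.3% (5072 of 8551). The mean number of matches, counting both strands, was 1.93 per promoter of the members, 0.77 over all promoters and 1.13 over the genes of the deposited table. The members without a match in this window were ARNT, HIF1AN, EGLN3, P4HA2, MXI1 and RORA. Among members whose groups did not overlap, 8 of 9 promoters held a core, and among the other members 14 of 19. These are matches of letters and were not measured as binding sites.

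**Figure D1:**
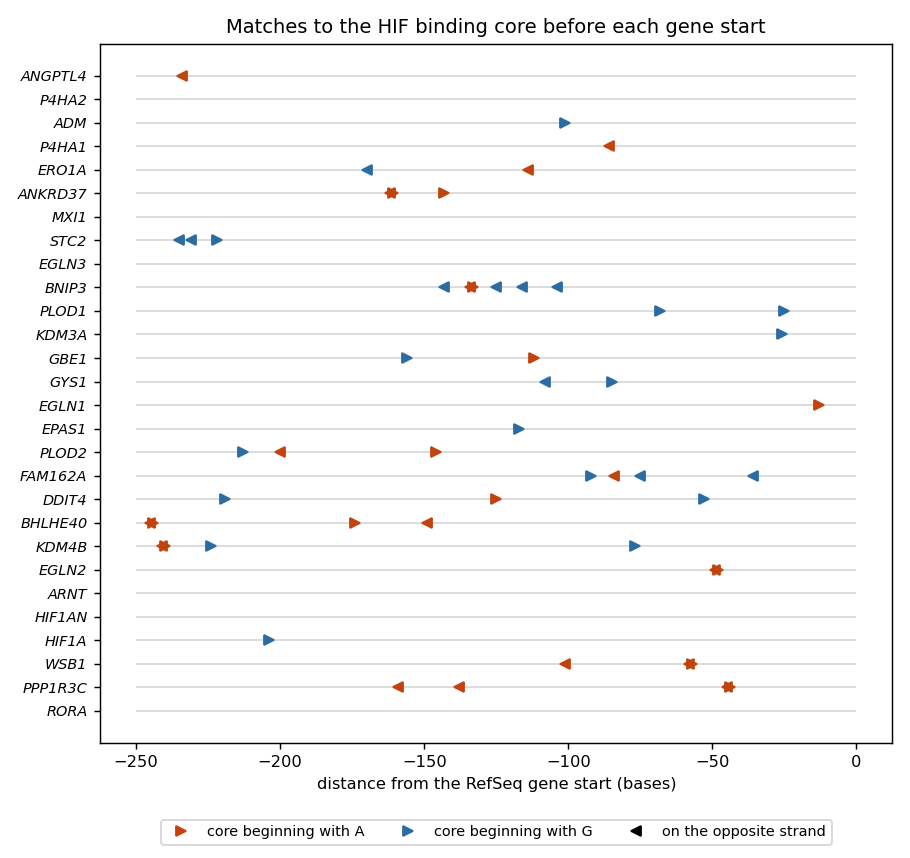
Each row is the promoter of a member, and each triangle is a match to ACGTG (red) or GCGTG (blue), placed by its distance in bases from the RefSeq gene start and pointing left for the opposite strand, so that CACGTG appears as a star. 22 of the 28 promoters carry at least 1 match, and the 6 empty rows are those of ARNT, HIF1AN, EGLN3, P4HA2, MXI1 and RORA.

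The listed genes held between 2497353 and 4579587 reads per library, so a single read was worth 0.222 to 0.404 CPM (a gene's reads scaled to a common library total). IGFBP2, the activated gene, stood at 93.5, 87.3 and 136 CPM in control replicates 1 to 3 and at 566, 1176 and 498 CPM in overexpression replicates 1 to 3, a rise in log2 fold change of 2.73 (SE 0.33, adjusted p = 0.0148, limma). EGFR, amplified in this line, was at 805 to 1358 CPM and the epithelial genes EPCAM, KRT5, KRT17 and KRT18 were listed, as were GATA3 and low ERBB2, while the hormone receptor genes ESR1 and PGR and the immune and endothelial markers PTPRC, CD68 and PECAM1 were not among the listed genes. Of fibroblast genes, COL1A1 was listed at 9.36 to 27.5 CPM and COL1A2 and ACTA2 were not listed. Mitochondrial transcripts took 7.20 to 8.55% and ribosomal protein genes 11.9 to 13.7% of the reads, with the highest ribosomal share in overexpression replicate 3. Correlations of log2 values over genes were 0.950 to 0.958 between control libraries, 0.976 between overexpression replicates 1 and 2, and 0.965 and 0.966 between these and replicate 3.

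Most HIF targets outside glycolysis were higher in the overexpression libraries, but none of the 35 members passed the threshold of the test over all genes. The largest differences were in ANGPTL4, NDRG1, P4HA2, ADM, P4HA1 and ERO1A, which differed by 1.34 to 4.15 on the log2 scale. HIF1A, ARNT, VHL and VEGFA lay close to no difference. On the scale of log2(CPM + 1), which understates changes of low genes, the median log2 fold change was 0.42 over the 35 members and 9.82e-05 over all genes, and 28 members (80.0%) were above 0. Because the RNA is from whole cultures, a larger share of cells expressing a gene and more RNA per cell cannot be told apart.

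The test was limma, fitted to the whole deposited table of 10487 genes on its log2 scale with Benjamini-Hochberg adjustment over all of them and a threshold of 0.05. It called 0 members higher and 0 lower, against a background of 0.429% of all genes higher and 0.200% lower. At an unadjusted p under 0.05, 14 members (40.0%) were higher and 0 lower, against 6.88% and 6.12% of all genes. Fitted to recovered whole reads with limma voom, 4 members, ADM, ERO1A, NDRG1 and P4HA2, passed, against 0.858% of all genes higher in that fit. With a mean-variance trend 5 passed, these and ANGPTL4, against 0.896% of all genes, and with a pseudocount of 5 in place of 1 the same 5 passed, against 0.801%. In 12 members (34.3%) all overexpression libraries lay above all control libraries and in 0 members below, against 9.43% and 8.61% of all genes. For each of these 12 the exact permutation test, two-sided, gave p = 0.1, the smallest that 3 libraries against 3 allow. Groups that do not overlap always give this value, so it adds nothing to the count. The members were chosen with earlier results of these data known, so the shares given here describe the list and do not test it.

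The table holds genes with a mean CPM over 5 in either group, so a gene that is low in one group entered only because it is high in the other. ANGPTL4, ANKRD37, P4HA2 and GBE1 passed that filter through the overexpression group only, and PPP1R3C and RORA through the control group only, so their directions lean on the filter. The other 29 members passed it in both groups, a split made after their values were seen. Of these 29, 24 were above 0, with a median log2 fold change of 0.42. At an unadjusted p under 0.05, 11 of them were higher, against 5.58% of the 9832 genes that passed in both groups. In 9 of them all overexpression libraries lay above all controls, against 8.80% of those genes.

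The genes of oxygen sensing, which make and control HIF, differed least. The median log2 fold change of these 8 members was 0.11, and their groups overlapped in all 8. HIF1A, which encodes HIF-1α, was at 22.6, 28.6 and 28.3 CPM in the control libraries and 26.1, 26.8 and 19.7 CPM in the overexpression libraries (log2 fold change -0.13, SE 0.20, limma adjusted p = 0.841). EPAS1, which encodes HIF-2α, was at 31.5, 48.1 and 27.9 CPM in control and 38.6, 50.4 and 53.5 CPM in overexpression libraries (0.42, SE 0.25, limma adjusted p = 0.519). Transcripts of both alpha subunits were thus present in every library, with overlapping groups. ARNT, the shared partner, VHL, the recognition subunit of the ligase, and HIF1AN, an asparaginyl hydroxylase that blocks HIF activation, had log2 fold changes between -0.09 and 0, with ARNT at -0.004, and the sign of ARNT turned to 0.018 with upper-quartile scaling.

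The prolyl hydroxylases that act on these subunits had log2 fold changes above 0, with overlapping groups. EGLN1 and EGLN2 had log2 fold changes of 0.43 and 0.22. EGLN3, itself a known HIF target, was at 15.8, 11.4 and 19.8 CPM in control and 31.6, 39.1 and 18.1 CPM in overexpression libraries. The means were 15.7 ± 4.21 and 29.6 ± 10.6 CPM (SD, n = 3 each), and the log2 fold change was 0.84 (SE 0.31, limma adjusted p = 0.294). Overexpression replicates 1 and 2 lay above every control, and replicate 3 lay within the control range.

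Collagen and lysine hydroxylation and disulfide formation had the largest median of the groups by role, 1.34 over 5 members. Of these, 4 were higher at an unadjusted p under 0.05 (limma), against 6.88% of all genes. P4HA2, among these 4, passed the filter of the table through the overexpression group only. P4HA1 and P4HA2 are catalytic subunits of the collagen prolyl 4-hydroxylase, which stabilises the collagen triple helix. P4HA1 (ENSG00000122884, chr10:73007217-73096974, with the core shown among the promoter windows) was at 10.7, 12.0 and 9.30 CPM in control, from 48, 43 and 23 reads, and at 52.6, 62.9 and 10.5 CPM in overexpression libraries, from 135, 195 and 32 reads. Replicates 1 and 2 were 4.88 times (95% counting interval 3.78 to 6.32) and 5.84 times (4.61 to 7.42) the pooled control level, and replicate 3 was 0.975 times (0.637 to 1.45). The groups therefore overlapped, and the log2 fold change over all libraries was 1.56 (SE 0.56, limma adjusted p = 0.290).

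P4HA2 was at 1.33, 5.84 and 6.87 CPM in control and 18.3, 22.3 and 12.2 CPM in overexpression libraries. Its means were 4.68 ± 2.95 and 17.6 ± 5.10 CPM (SD, n = 3 each), with a log2 fold change of 1.85 (SE 0.44, limma adjusted p = 0.129, and 0.0397 with limma voom). Every overexpression library was above every control, so P4HA2, unlike P4HA1, was also high in replicate 3, at 2.92 times the pooled control level (95% counting interval 1.83 to 4.63). ERO1A, the oxidase that keeps protein disulfide isomerase able to form disulfides, was at 12.0, 17.2 and 12.5 CPM in control and 48.7, 42.3 and 23.3 CPM in overexpression libraries. The log2 fold change was 1.34 (SE 0.29, limma adjusted p = 0.0999, and 0.0397 with limma voom). Its groups did not overlap, with replicate 3 between the control libraries and the other two overexpression libraries.

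The lysyl hydroxylases PLOD1 and PLOD2 prepare collagen for cross-linking. PLOD1 was at 33.3, 54.5 and 54.6 CPM in control and 70.6, 81.7 and 78.2 CPM in overexpression libraries (log2 fold change 0.72, SE 0.23, limma adjusted p = 0.247), with the groups apart and the overexpression libraries close together. PLOD2 had a log2 fold change of 0.34, with overlapping groups.

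Of the secreted factors, ANGPTL4 and ADM were higher in every overexpression library, and VEGFA and STC2 overlapped. ANGPTL4 (ENSG00000167772, chr19:8363289-8374370), a secreted inhibitor of lipoprotein lipase, was at 1.33, 0.278 and 1.21 CPM in control libraries, from 6, 1 and 3 reads. In the overexpression libraries it was at 84.2, 72.0 and 4.93 CPM, from 216, 223 and 15 reads. It was thus near the detection limit in control cells, and replicate 3 was far below replicates 1 and 2 but above every control. Against the pooled control, which held 10 reads, the ratio was 89.0 in replicate 1 (95% counting interval 47.5 to 188), 76.1 in replicate 2 (40.6 to 161) and 5.21 in replicate 3 (2.19 to 13.0). The log2 fold change of 4.15 (SE 0.87, limma adjusted p = 0.0933) ranked 1 of all 10487 genes, and so did the range among the overexpression libraries, 3.85 on the log2 scale. ANGPTL4 passed the filter of the table through the overexpression group only, and without overexpression replicate 1 its log2 fold change was 3.47 (limma adjusted p = 0.25).

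ADM, the precursor of the vasodilator adrenomedullin (chr11:10305073-10307397), was at 67.3, 30.0 and 17.0 CPM in control and 112, 112 and 90.0 CPM in overexpression libraries. The means were 38.1 ± 26.1 and 105 ± 12.6 CPM (SD, n = 3 each), with a log2 fold change of 1.64 (SE 0.42, limma adjusted p = 0.149, and 0.0317 with limma voom). Here the spread lay in the control cells, and the overexpression libraries were close together. Without control replicate 1, the highest control, its log2 fold change was 2.15 (SE 0.28, limma adjusted p = 0.0208). ADM was the only member called in that fit, against 0.458% of all genes called higher. Leaving out the lowest control, replicate 3, lowered its log2 fold change to 1.19, and ADM did not pass. Nor did ADM pass with any other single library left out, with limma adjusted p up to 0.391. VEGFA, the angiogenic growth factor that is among the best known HIF targets, was at 19.1, 30.3 and 25.5 CPM in control and 26.9, 26.5 and 25.6 CPM in overexpression libraries, with a log2 fold change of 0.10 (SE 0.21, limma adjusted p = 0.891). STC2, a secreted glycoprotein, ranged from 33.2 to 349 CPM among the control libraries and from 156 to 216 CPM among the overexpression libraries, with a log2 fold change of 0.85 (SE 0.68, limma adjusted p = 0.652). The value rests on single control libraries, since it was 0.027 without control replicate 3 and 1.70 without control replicate 2.

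**Figure D2:**
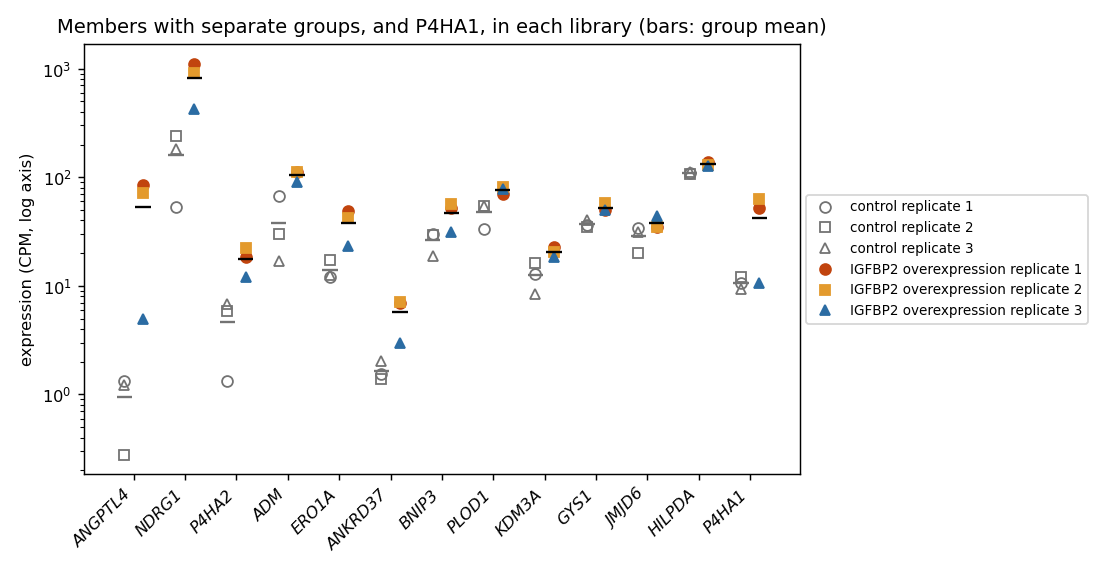
CPM on a log axis is shown for the 12 members whose groups do not overlap and for P4HA1, with open symbols for the 3 control and filled symbols for the 3 IGFBP2 overexpression libraries, and bars for the group means. ANGPTL4 and P4HA1 have overexpression replicates 1 and 2 far above replicate 3, and the ADM overexpression libraries lie together between 90.0 and 112 CPM.

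The mitochondrial members had a median log2 fold change of 0.61. BNIP3 and BNIP3L are outer membrane receptors for the removal of mitochondria by autophagy. BNIP3, whose promoter held 6 core matches, was at 30.0, 29.5 and 19.0 CPM in control and 51.8, 56.5 and 31.5 CPM in overexpression libraries (log2 fold change 0.80, SE 0.28, limma adjusted p = 0.280). Its groups did not overlap, although replicate 3 was only slightly above the highest control. BNIP3L had a log2 fold change of 0.61 (SE 0.23), with replicate 3, at 44.3 CPM, below the highest control, at 44.9 CPM. FAM162A, a mitochondrial protein linked to hypoxic cell death, had a log2 fold change of 0.30.

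Members of glycogen and lipid storage differed by smaller amounts, with a median of 0.37 over 4 members. GYS1, the muscle-type glycogen synthase, was at 36.6, 35.1 and 40.0 CPM in control and 49.5, 57.8 and 49.9 CPM in overexpression libraries (log2 fold change 0.48, SE 0.18, limma adjusted p = 0.294). HILPDA, an inhibitor of lipolysis on lipid droplets, was at 110, 107 and 113 CPM in control and 140, 129 and 126 CPM in overexpression libraries (0.26, SE 0.17, limma adjusted p = 0.571). The groups of both genes did not overlap, and the spread within each group was small. GBE1, the glycogen branching enzyme, was at 7.33, 3.62 and 2.83 CPM in control and 8.58, 11.0 and 3.94 CPM in overexpression libraries, with a log2 fold change of 0.65 (SE 0.38) and replicate 3 inside the control range. PPP1R3C, which brings a phosphatase to glycogen, had a log2 fold change of -0.38 (SE 0.23).

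Among chromatin and transcription members the median was 0.34 over 6. KDM3A, a demethylase of histone H3 lysine 9 that needs oxygen, was at 12.9, 16.1 and 8.49 CPM in control and 22.6, 20.7 and 18.4 CPM in overexpression libraries (log2 fold change 0.71, SE 0.24, limma adjusted p = 0.267). JMJD6, another oxygen-dependent enzyme of the Jumonji family, was at 34.2, 20.0 and 31.5 CPM in control and 35.1, 34.5 and 44.0 CPM in overexpression libraries (0.42, SE 0.24, limma adjusted p = 0.50). In both genes the groups were apart, in JMJD6 by less than 1 CPM. MXI1, an antagonist of MYC, was at 12.9, 30.0 and 11.7 CPM in control and 45.6, 33.6 and 21.0 CPM in overexpression libraries (0.90, SE 0.38, limma adjusted p = 0.367), and its groups overlapped. RORA, a nuclear receptor, had the lowest log2 fold change of the members, -0.83 (SE 0.66), at 5.99, 12.5 and 2.83 CPM in control and 5.46, 6.46 and 0.328 CPM in overexpression libraries. The last value is a single read, with a 95% counting interval of 0.00832 to 1.83 CPM. KDM4B and BHLHE40 had log2 fold changes of 0.22 and 0.26, with overlapping groups.

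The remaining members act in growth control, stress and modification of proteins. NDRG1 (ENSG00000104419), which responds to stress and differentiation, was at 53.1, 239 and 184 CPM in control and 1114, 913 and 422 CPM in overexpression libraries. Its means were 159 ± 95.6 and 816 ± 356 CPM (SD, n = 3 each), and its log2 fold change of 2.50 (SE 0.55, limma adjusted p = 0.108, and 0.0109 with limma voom) ranked 14 of all genes. The groups were apart, and both varied by more than 2-fold within themselves. Without control replicate 1, the lowest, the log2 fold change of NDRG1 was 1.84. ANKRD37, an ankyrin repeat protein whose promoter windows are shown with the others, was at 1.55, 1.39 and 2.02 CPM in control, from 7, 5 and 5 reads, and at 7.02, 7.10 and 2.96 CPM in overexpression libraries, from 18, 22 and 9 reads. Its ratio to the pooled control was 4.36 and 4.42 in replicates 1 and 2 and 1.84 in replicate 3 (95% counting interval 0.722 to 4.36), and the log2 fold change was 1.27 (SE 0.29, limma adjusted p = 0.121). DDIT4, an inhibitor of mTORC1, and FUT11, a fucosyltransferase, had log2 fold changes of 0.30 and 0.42, and WSB1, a substrate receptor of a ubiquitin ligase, of -0.18, all with overlapping groups. DDIT4 spanned 32.8 to 182 CPM among the control libraries alone, and its mean CPM was slightly lower in overexpression (88.4) than in control cells (91.3), against the sign of its log2 fold change. Without control replicate 2 the log2 fold change of DDIT4 was 0.98, and without control replicate 3 it was -0.24.

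The overexpression libraries did not carry the pattern equally. Replicate 1 was above all controls in 21 members (60.0%), replicate 2 in 23 (65.7%) and replicate 3 in 15 (42.9%), against 25.1%, 25.3% and 24.9% of all genes. The median difference from the control mean over the members was 0.58, 0.55 and 0.23 on the log2 scale, and over all genes it was 0.0055, 0.0058 and 0.0085. Of the overexpression libraries, replicate 3 was the lowest in 25 of 35 members (71.4%), against 36.7% of all genes. Over the members, replicates 1 and 2 differed from each other by a median of 0.20 on the log2 scale, and from replicate 3 by 0.39 and 0.42. Over all genes these medians were 0.21, 0.27 and 0.27, so replicate 3 also stood farther off there, and replicates 1 and 2 were about as close in the members as in all genes. IGFBP2 itself was also lowest in replicate 3, at 498 CPM against 566 CPM in replicate 1 and 1176 CPM in replicate 2. Replicates 1 and 2 thus differed more from each other in IGFBP2 than replicates 1 and 3 did. The part of IGFBP2 level and of the ribosomal share in the order of the libraries was not tested.

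**Figure D3:**
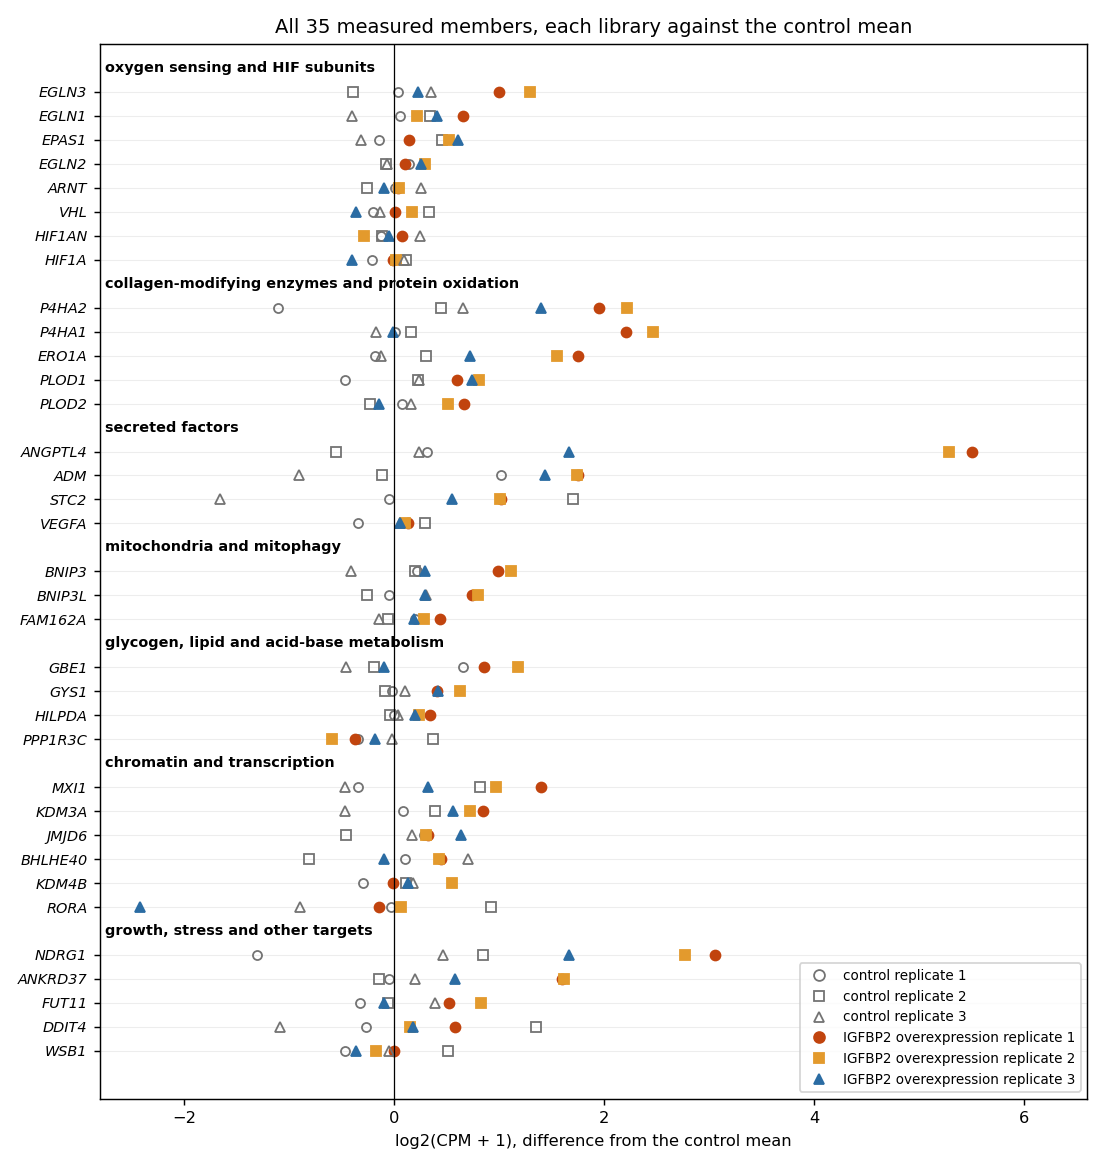
For each of the 35 members, arranged by role, the log2(CPM + 1) value of every library is shown as its difference from the control mean, with open symbols for control and filled symbols for IGFBP2 overexpression replicates. Replicate 3 is the lowest filled symbol in 25 members, and its median over the members is 0.23 against 0.58 and 0.55 in replicates 1 and 2.

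The members with the widest range among the overexpression libraries were ANGPTL4 (3.85 on the log2 scale), RORA (2.49), P4HA1 (2.47), NDRG1 (1.40), GBE1 (1.28), MXI1 (1.08), EGLN3 (1.07) and ANKRD37 (1.03). In each of these replicate 3 was the lowest. VEGFA (0.07) and HILPDA (0.14) had the narrowest ranges. The SD among overexpression libraries was over 2 times that given by read counting alone in 17 members (48.6%), against 31.0% of all genes. Among control libraries it was over 2 times the counting SD in 17 members as well, against 49.7% of all genes. The ratio of the SD to the counting SD was 23.0 in NDRG1, 11.1 in ANGPTL4 and 8.36 in P4HA1, and 0.216 in VEGFA. Counting is only a part of the spread between biological replicates. Among control libraries the ratio was 16.1 in NDRG1, 1.28 in ANGPTL4 and 0.739 in P4HA1, and the SD of NDRG1 was larger among control (1.15) than among overexpression libraries (0.74). The median SD of the members was 0.27 among overexpression and 0.36 among control libraries, and in 14 of the 35 members the overexpression group was the more variable. Over all genes the median SDs were 0.215 and 0.270, and the overexpression group was the more variable in 4088 of 10487 genes. The smaller spread among overexpression libraries was thus not particular to the members.

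**Figure D4:**
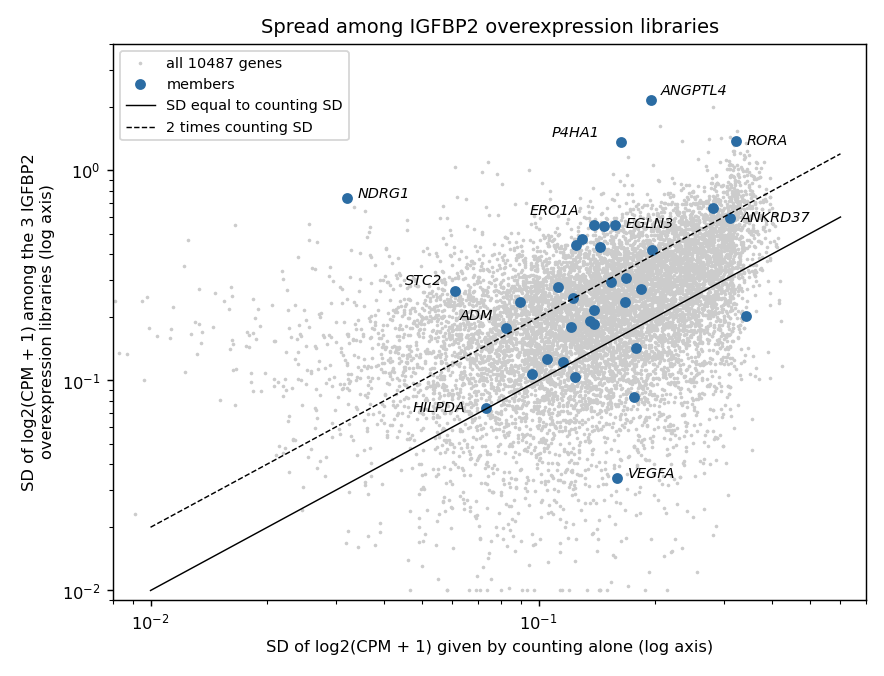
The SD of each gene among the 3 overexpression libraries is plotted against the SD that read counting alone gives, both of log2(CPM + 1) and on log axes, with members in blue, all genes in grey, and lines at 1 and 2 times the counting SD. 17 of the 35 members lie above the dashed line at 2 times, with NDRG1, ANGPTL4 and P4HA1 farthest above it and VEGFA farthest below.

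Without overexpression replicate 3, limma called 4 members higher, against 0.324% of all genes called higher in that fit. ANGPTL4 then had a log2 fold change of 5.39 (SE 0.30, limma adjusted p = 0.00103), P4HA1 of 2.34 (SE 0.22, adjusted p = 0.0129), ERO1A of 1.65 (SE 0.23, adjusted p = 0.0388) and ANKRD37 of 1.61 (SE 0.21, adjusted p = 0.0276). Of these, ANGPTL4 and ANKRD37 are among the members that passed the filter only through overexpression. These members thus passed in a fit of replicates 1 and 2 against the 3 controls and not in the fit of all libraries. Without overexpression replicate 1 or replicate 2 instead, limma called 0 members. Replicate 3 was the lowest overexpression library in 25 of 35 members (71.4%), so leaving it out raises their log2 fold changes. RORA went from -0.83 to -0.04 without this library.

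**Figure D5:**
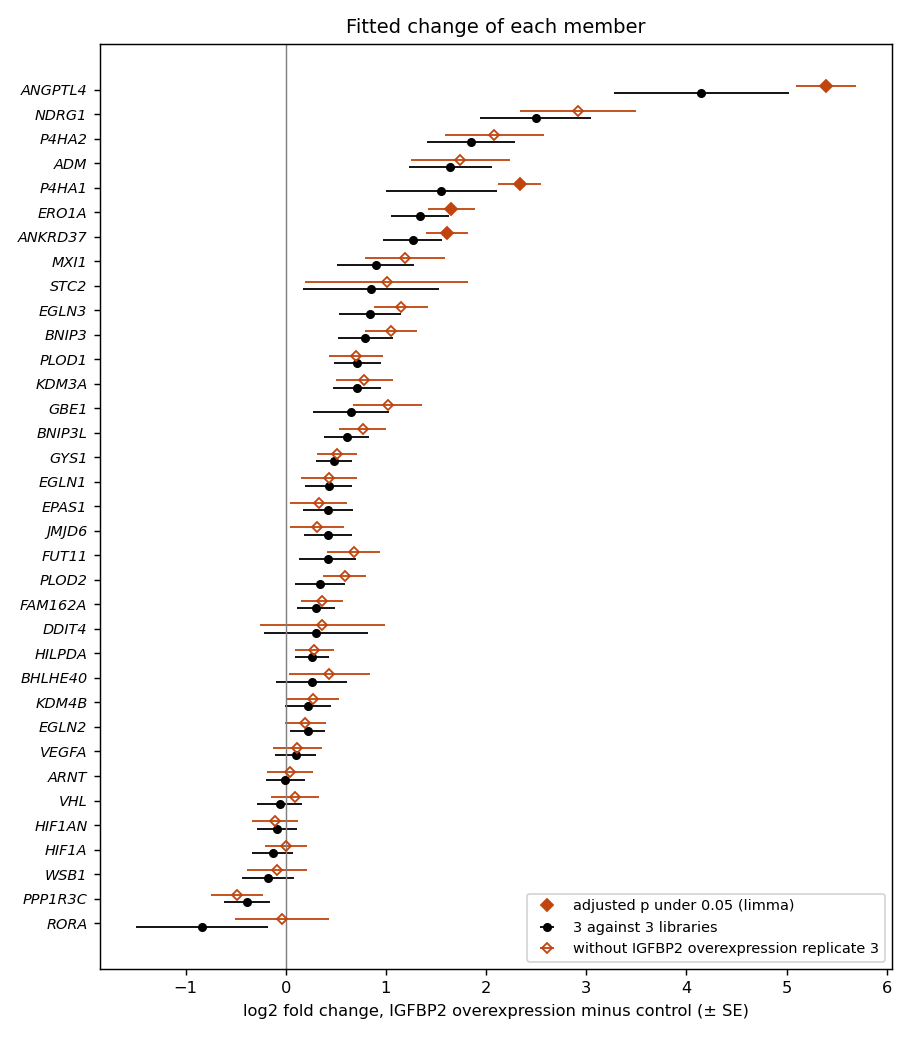
Circles are the log2 fold changes of the 35 members, IGFBP2 overexpression minus control on the log2(CPM + 1) scale, in the fit of all libraries, and diamonds those without overexpression replicate 3, filled where the limma adjusted p was under 0.05, with bars of 1 standard error. Of the circles 28 lie above 0, from RORA at -0.83 to ANGPTL4 at 4.15, and the filled diamonds are ANGPTL4, P4HA1, ERO1A and ANKRD37.

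Other genes of the pathway were taken from further lists. Of 16 oxygen-sensing regulators and subunits of the VHL ligase, 14 were listed, and limma called 0 of them, with a median log2 fold change of 0.02. The smallest p-values were those of EP300, RBX1 and HSP90AA1. EP300, a coactivator that HIF recruits, was at 165, 176 and 173 CPM in control and 93.2, 81.7 and 125 CPM in overexpression libraries (log2 fold change -0.79, SE 0.21, limma adjusted p = 0.162), so its libraries lay below all controls. RBX1, the RING subunit of the ligase, had a log2 fold change of -0.46 (limma adjusted p = 0.327), also with the groups apart, and HSP90AA1, a chaperone that binds HIF-1α, of 0.33 (limma adjusted p = 0.587).

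Of 40 further HIF targets outside glycolysis, 28 were listed, 17 above 0 and 11 below, with a median log2 fold change of 0.26, and 1 passed. IGFBP3, a binding protein of insulin-like growth factors, rose from 51.3, 21.1 and 22.2 CPM to 381, 299 and 98.5 CPM (log2 fold change 2.91, SE 0.51, limma adjusted p = 0.0490). With single libraries removed it passed in 2 of 6 fits, with adjusted p from 0.0239 to 0.189 by limma. TMEM45A, a transmembrane protein, had a log2 fold change of 1.31 (limma adjusted p = 0.0956). HMOX1, which degrades heme, had 1.74 (limma adjusted p = 0.0946), at 31.7, 42.8 and 21.0 CPM in control and 62.8, 110 and 164 CPM in overexpression libraries. In IGFBP3 and TMEM45A replicate 3 was the lowest overexpression library, and in HMOX1 it was the highest.

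The glycolytic targets, listed for 18 of 20, had a median log2 fold change of 0.54, and all 18 were above 0. PFKP, the platelet-type phosphofructokinase, rose from 138, 153 and 143 CPM to 301, 337 and 267 CPM (log2 fold change 1.05, SE 0.18, limma adjusted p = 0.0455), and with single libraries removed it passed in 0 of 6 fits. PGK1 and LDHA, which act later in glycolysis, had log2 fold changes of 0.76 and 1.03 (limma adjusted p = 0.181 and 0.198). Replicate 3 was the lowest overexpression library in 14 of these 18 genes.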

How the data were processed

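RNA of 3 control and 3 IGFBP2 overexpression replicates was measured by QuantSeq 3′ sequencing. The authors used bbduk for trimming, STAR for alignment to hg38, htseq-count (HTSeq 0.9.1 by the submitters' processing notes) for reads per gene and edgeR for normalization. Genes had to exceed a mean CPM of 5 in either group, and the authors deposited them as log2(CPM + 1). The strand setting of the counting is not given in the sources used here, so reads of P4HA1, P4HA2, ERO1A, ANKRD37, HIF1A, HIF1AN, VHL, BNIP3L, VEGFA, BHLHE40, MXI1, FAM162A, FUT11 and RORA may not be told apart from those of genes that overlap their exons on the other strand. On the same strand, exons overlap for NDRG1, HILPDA, EGLN1, EGLN2, JMJD6, HIF1A and RORA, whose values are uncertain for that reason.

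Whole reads were recovered from the deposited values (all values whole within 0.01 read) and used for counting intervals (95%, counting error only, not independent molecules) and limma voom. limma 3.58.1 (R 4.3.3) was fitted to the whole table of 10487 genes with a term for group alone, no trend, and Benjamini-Hochberg adjustment. Exact tests used Python 3.11.15 with scipy 1.17.1. The code was tested on simulated data. Positions and symbols are from GENCODE 44 on GRCh38 (10462 of 10487 identifiers matched), and promoters from RefSeq.

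The members and lists were chosen with earlier results of these data known. Named were IGFBP2, the members, and of each further list the genes past the threshold and the 3 with the smallest p. Values in every library were given for members whose groups did not overlap, for the 8 with the widest range among overexpression libraries, and for a few others. Alternatives covered scaling, variance model, pseudocount, a filter, the replicate number and each library left out.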

Additional observations from a re-analysis of the deposited data

How the results depend on the processing

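The number of members called, 0 with limma on all libraries, was 5 with the mean-variance trend, 4 with limma voom, 5 with a pseudocount of 5 and 0 to 4 with each library left out, with 1 (ADM) without control replicate 1 and 4 without overexpression replicate 3. The count over all genes was 66 (45 higher, 21 lower), and 160, 141 and 129 in the same 3 alternatives, and 12 to 79 with a library left out, with 12, 13 and 17 without overexpression replicate 1, overexpression replicate 2 and control replicate 3. The median log2 fold change of the members stayed between 0.38 and 0.51 in all 14 alternatives, and that of IGFBP2 between 2.35 and 2.97, past the threshold in each. The median SD of the members among overexpression libraries was 0.27, and 0.14 without overexpression replicate 3 (0.14 to 0.30 with a library left out). With the replicate number as a block, 0 members and 55 genes passed, and PFKP did not (limma adjusted p = 0.0846). Same-numbered libraries had correlations of their deviations of 0.17, -0.06 and 0.08. The labels give them only a replicate number, and these values cannot settle whether they were prepared together. With a pseudocount of 0.5, neither PFKP nor IGFBP3 passed (limma adjusted p = 0.0553 and 0.0642). Of the 8 alternatives that keep every library, IGFBP3 passed in 7 and PFKP in 6. IGFBP3 was among the genes that passed with the replicate block (limma adjusted p = 0.0167). The sign turned in 8 members, whose values lay between -0.18 (WSB1) and 0.30 (DDIT4). ARNT, at -0.004, was at 0.018 with upper-quartile scaling and 0.016 with limma voom. With a library left out, log2 fold changes spanned -0.13 to 0.12 in ARNT, -0.24 to 0.0034 in HIF1A, -0.18 to 0.11 in VHL, -0.17 to 0.034 in HIF1AN, -0.076 to 0.24 in VEGFA, -0.15 to 0.61 in BHLHE40, -0.41 to 0.076 in WSB1 and -0.24 to 0.98 in DDIT4. The cause of these changes was not tested. Over single members and alternatives, 454 values kept their direction and side of the threshold, 19 came to pass it and 13 turned sign, and 7 members passed in at least 1 alternative. Depth limits ANGPTL4 (1 to 6 reads per control library), ANKRD37 (5 to 7) and RORA (1 read in overexpression replicate 3).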
